A study of Mus musculus with 9 samples.

Results

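The genes described here are 9 immediate early genes and regulators in mouse embryonic stem cells: the zinc-finger factor genes Egr1, Egr2 and Egr3, the immediate early response genes Ier2, Ier3 and Ier5, the orphan nuclear receptor gene Nr4a1, the activity-regulated gene Arc and the serum response factor gene Srf. They were chosen by symbol, and each had 1 row among the 52264 rows of the deposited table of counts. All 9 RNA sequencing libraries came from embryonic stem cells of the genotype β-catenin-/-, with 3 libraries labelled Control, 3 labelled BRD0705 and 3 labelled CHIR. BRD0705 is an inhibitor selective for the kinase GSK3α, and CHIR-99021, labelled CHIR, inhibits GSK3α and GSK3β. The cells of every group were kept on feeder-treated dishes and expanded in 3 µM CHIR-99021, 1 µM PD03, which inhibits the kinase MEK, and 40 ng/ml of the cytokine LIF, so the Control cells had also met CHIR earlier. Before RNA extraction the medium was N2B27 overnight, and the treatments then lasted 30 min, at doses that the labels do not state. The labels do not say whether the cells were 1 clone, nor whether the 3 libraries of a group came from separate cultures, so p-values measure only the spread between these samples, which may be technical.

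Immediate early genes are transcribed within minutes of a stimulus from factors already present in the cell, without new protein synthesis. In the serum response, ERK kinase signalling activates the ternary complex factors, which bind with SRF at CArG boxes, while the myocardin-related factors bring actin signals to the same SRF sites and CREB brings cyclic AMP and calcium signals to cyclic AMP response elements. The EGR and NR4A products are themselves transcription factors that carry the response to later genes, and in embryonic stem cells the ERK branch is held down by MEK inhibitors such as PD03 during naive culture.

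Depth was 17359422 to 20773337 counts per library. Same-group libraries differed by more than counting error (chi-square divided by its degrees of freedom, 3.37 to 7.89). Ctnnb1, the gene of β-catenin, gave 302 to 371 CPM (counts per 1000000 counts, scaled for library composition) over the 9 libraries; no library here had an intact gene to compare, and a transcript can remain after a deletion. None of the 10 stem cell markers was at 0 in any group, and their summed level was 5034 to 5159 CPM in Control, 5103 to 5260 in BRD0705 and 5206 to 5382 in CHIR. The 12 markers of fibroblasts, the usual feeder cells, were none at 0 either. Their summed level was 3219 to 3740 CPM in Control, 4058 to 4147 in BRD0705 and 3556 to 4357 in CHIR, so every BRD0705 library and 2 of the 3 CHIR libraries lay above every Control library. All 12 had a higher estimate under each inhibitor, with a median log2 fold change of 0.23 for BRD0705 and 0.19 for CHIR, and 3 of them, Col1a1, Col5a1 and Lox, passed the test in each, where 0.69 and 2.52% of all genes tested rose. These calls were not stable when 1 library was left out. Of the 9 fits without 1 library, each of the 3 passed in 5 with BRD0705. With CHIR, Col1a1 passed in 5, Lox in 4 and Col5a1 in 3. All were lost without Control replicate 2 or 3 or replicate 1 or 2 of the inhibitor, with edgeR adjusted p of up to 0.199 in these fits. In such bulk samples fewer cells of a type and less RNA per cell cannot be told apart. Mitochondrial transcripts took 1.495 to 1.59% of the counts in Control, 1.35 to 1.87% in BRD0705 and 1.79 to 1.91% in CHIR; the part of this share in the results was not tested.

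After 30 min of CHIR, Egr1, Ier2 and Ier3 were higher than in Control, by 1.86-, 1.21- and 1.30-fold. After 30 min of BRD0705, Nr4a1 alone of the 7 members tested passed the threshold, at 1.23-fold, and it did so in only 4 of the 9 fits without 1 library. Set against each other directly, BRD0705 gave lower Ier2 and Ier3 than CHIR. Without 1 library, Ier2 passed in 1 of the 9 fits and Ier3 in all 9. Arc, Srf and Ier5 passed in no comparison, and Egr2 and Egr3 had too few counts for the test. The plot of levels by library shows these values for all 9 genes.

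**Figure D1:**
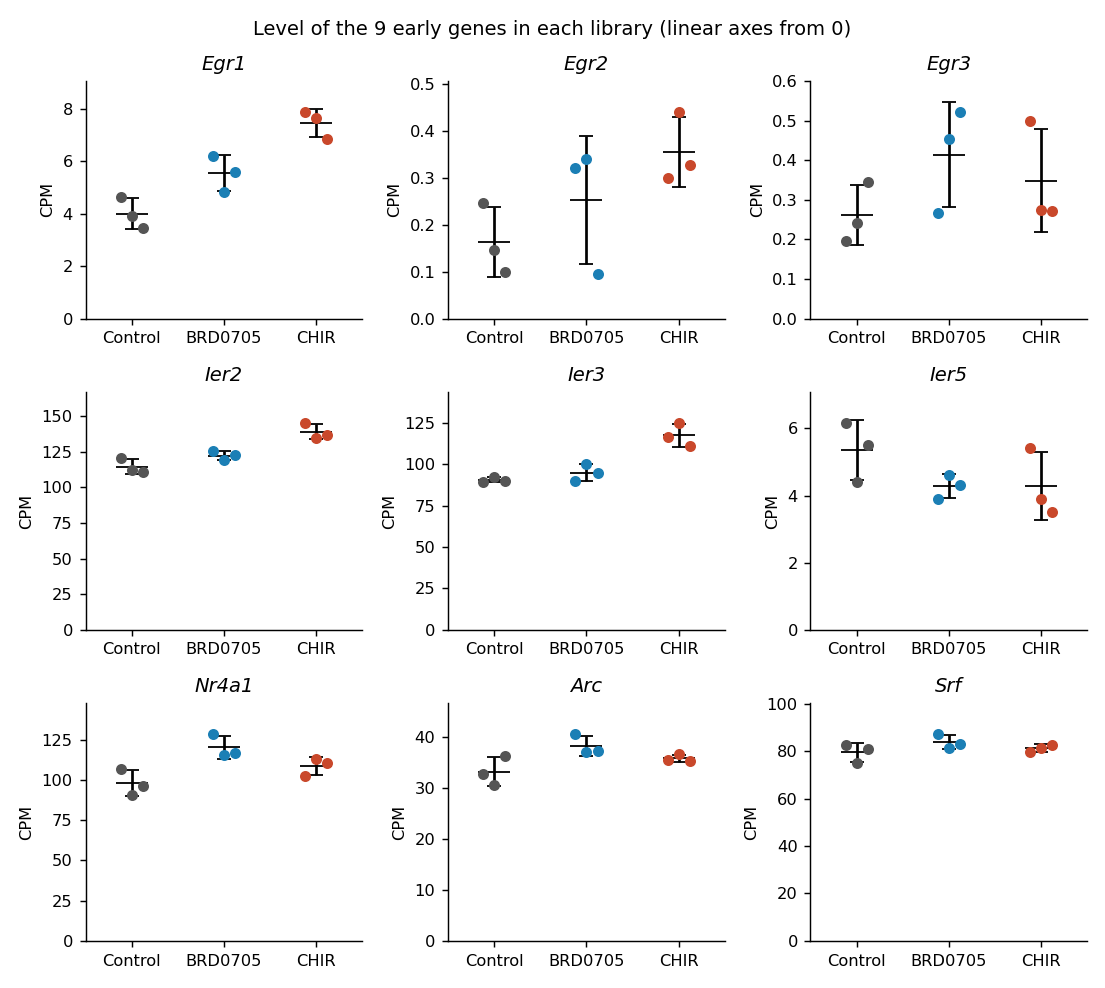
Level of each of the 9 genes in CPM (vertical axes, linear and from 0) in Control, BRD0705 and CHIR; points are single libraries, in the order of replicates 1 to 3, the long bar is the mean and the whiskers are 1 SD (n = 3). All 3 CHIR libraries lie above all Control libraries for Egr1, Ier2, Ier3 and Egr2, the last at 2 to 8 counts a library. All 3 BRD0705 libraries do so for Egr1, Nr4a1 and Arc.

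The genes were present at very different levels. Divided by the length of the canonical transcript, Ier3 stood at 79.6 ± 1.47 CPM per kb in Control and Ier2 at 75.1 ± 3.32 (SD, n = 3 each), and the Control libraries of these neighbours overlapped. Nr4a1 followed at 38.5 ± 3.25 CPM per kb, Srf at 19.3 ± 0.966 and Arc at 10.8 ± 0.916. Ier5 and Egr1 were far lower, at 1.64 ± 0.271 and 0.889 ± 0.132 CPM per kb. The lowest were Egr3 at 0.0600 ± 0.0174 and Egr2 at 0.0549 ± 0.0254 CPM per kb, which overlapped. No other neighbours in this order overlapped between Control libraries. Under CHIR the order of Ier5 and Egr1 was the other way round, with Egr1 at 1.66 ± 0.122 and Ier5 at 1.31 ± 0.311 CPM per kb, although their CHIR libraries overlapped. Among the 15366 genes tested, the mean log2 CPM of Ier2, Nr4a1, Ier3 and Srf stood at the 89.0, 87.1, 86.0 and 82.9 percentiles, Arc at 66.9, and Egr1 and Ier5 at 32.1 and 29.6.

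Sequences just before annotated start sites were searched for the elements named above. RefSeq windows of 300 bases on GRCm38.p6 were found for 5 of the 9 genes: Egr2, Ier3, Ier5, Nr4a1 and Srf. Windows of Egr1, Egr3, Ier2 and Arc were not used here. The 250 bases before the start are printed for Srf, which carries the element its own product binds, for Egr2, which carries both kinds of element, for Nr4a1, the member that passed with BRD0705, and for Ier3, which passed with CHIR. They lie at chr17:46556163-46556412 on the minus strand for Srf, chr10:67537619-67537868 on the plus strand for Egr2, chr15:101266596-101266845 on the plus strand for Nr4a1 and chr17:35821463-35821712 on the plus strand for Ier3. Those of Srf, Egr2 and Nr4a1 lie inside the gene spans given below, so they precede an internal start. Sequence before the outermost start of these genes was not examined. Capitals mark CArG boxes and the core of the cyclic AMP response element, TGACG on either strand (CGTCA on the other).
Srf: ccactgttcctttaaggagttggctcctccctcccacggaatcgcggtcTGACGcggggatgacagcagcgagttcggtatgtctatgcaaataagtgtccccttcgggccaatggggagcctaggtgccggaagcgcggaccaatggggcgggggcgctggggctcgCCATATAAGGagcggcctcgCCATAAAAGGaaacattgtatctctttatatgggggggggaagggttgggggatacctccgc
Egr2: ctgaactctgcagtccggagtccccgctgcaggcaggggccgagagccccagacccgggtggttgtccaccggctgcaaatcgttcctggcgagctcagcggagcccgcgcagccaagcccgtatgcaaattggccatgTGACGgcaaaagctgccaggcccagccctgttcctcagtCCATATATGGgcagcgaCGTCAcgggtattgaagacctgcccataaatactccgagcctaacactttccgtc
Nr4a1: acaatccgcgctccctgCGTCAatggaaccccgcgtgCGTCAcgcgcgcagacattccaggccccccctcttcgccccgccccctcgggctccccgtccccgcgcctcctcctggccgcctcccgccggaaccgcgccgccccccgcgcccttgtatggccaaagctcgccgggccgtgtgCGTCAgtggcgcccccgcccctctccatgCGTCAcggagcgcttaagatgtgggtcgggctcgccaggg
Ier3: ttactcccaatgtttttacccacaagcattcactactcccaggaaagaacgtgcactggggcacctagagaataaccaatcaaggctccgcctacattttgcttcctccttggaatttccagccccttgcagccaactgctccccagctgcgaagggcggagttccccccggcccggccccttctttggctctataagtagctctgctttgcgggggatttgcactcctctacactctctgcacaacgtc

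Counted from the start base as 0, the Srf window had 2 CArG boxes, CCATATAAGG at -82 to -73 and CCATAAAAGG at -62 to -53, besides the core TGACG at -201. A CArG box was found in 1.63% of all 32817 windows, and at least 2 in 0.0183%. The Egr2 window had the CArG box CCATATATGG at -72 to -63, with TGACG at -111 and CGTCA at -55. Other annotated starts of Egr2 have windows of their own, and in that of a start farther upstream the CArG box CCTTTTTTGG lay at -72 to -63. The Nr4a1 window had no CArG box and 4 copies of CGTCA, beginning at -233, -213, -69 and -40. The core was in 20.8% of all windows, and at least 4 copies in 0.232%. The limits of 2 boxes and 4 copies are the counts found in the Srf and Nr4a1 windows themselves. All windows were counted whatever their GC content, which was 72.3% in the Nr4a1 window. How unusual these windows are was therefore not tested. The windows of Ier3 and Ier5 had neither element but 2 CCAAT boxes each, which 37.4% of windows had. The 8-base element TGACGTCA, the EGR site GCGTGGGCG and the AP-1 site TGANTCA, found in 1.79, 0.612 and 7.81% of windows on either strand, were in none of the windows of the 5 genes. The ETS core CCGGAAG, in 8.86% of windows, was in that of Srf only, at -122. These are matches of letters within the windows and describe no binding.

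Egr1 (chr18:34861207-34864956 on GRCm38, plus strand, 2 exons) encodes a zinc-finger factor that is a standard readout of ERK signalling. Its level was 4.63, 3.92 and 3.45 CPM in Control replicates 1 to 3, from 94, 81 and 70 counts. BRD0705 gave 6.20, 4.83 and 5.60 CPM, and CHIR 7.87, 7.65 and 6.83 CPM. The 3 groups did not overlap: every CHIR library lay above every BRD0705 library, and every BRD0705 library above every Control library. Egr1 rose 1.86-fold with CHIR (log2 fold change 0.90 ± 0.14 SE, 95% interval 0.59 to 1.20, edgeR adjusted p 0.00110). With BRD0705 its log2 fold change was 0.47 ± 0.15 SE, with a 95% interval of 0.16 to 0.79 and an unadjusted p of 0.00522, and it did not pass over all genes (edgeR adjusted p 0.121). The direct difference of BRD0705 from CHIR was -0.42 ± 0.14 SE on the log2 scale (95% interval -0.72 to -0.13) and did not pass either (edgeR adjusted p 0.0717). Of 11 alternative fits 2 passed, both with a correction of each library for GC content and transcript length, at an edgeR adjusted p of 0.0318 and 0.0336. Of the 9 leave-one-out fits, each without 1 library, 0 passed.

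Egr2 and Egr3, the close relatives of Egr1 known from hindbrain and muscle spindle development, were near the floor of detection. Egr2 (chr10:67534469-67542188, plus strand, 2 exons) gave 5, 3 and 2 counts in Control, 6, 6 and 2 in BRD0705 and 6, 8 and 6 in CHIR. Egr3 (chr14:70077317-70082613, plus strand, 2 exons) gave 4, 5 and 7 counts in Control, 5, 8 and 11 in BRD0705 and 10, 5 and 5 in CHIR. Their groups overlapped except that all CHIR libraries of Egr2 lay above all of Control, at 0.299 to 0.440 CPM against 0.0985 to 0.246. Neither passed the low-count filter. Fitted without that filter, the log2 fold changes with CHIR were 1.09 ± 0.68 SE for Egr2 and 0.43 ± 0.59 for Egr3, and those with BRD0705 were 0.58 ± 0.72 and 0.66 ± 0.57 (edgeR adjusted p 0.530, 0.786, 0.796 and 0.770). At this depth changes of that size were not detectable.

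Ier2 (chr8:84661331-84662852, minus strand), a gene of 1 exon whose short-lived product acts in the nucleus, was the most abundant member by CPM. Its level was 120.3, 112 and 111 CPM in Control, 125, 119 and 122 CPM in BRD0705 and 145, 135 and 137 CPM in CHIR. The CHIR libraries lay above all others, while BRD0705 overlapped Control. Ier2 rose 1.21-fold with CHIR (log2 fold change 0.28 ± 0.05 SE, 95% interval 0.17 to 0.39, edgeR adjusted p 0.00436). With BRD0705 the estimate was 0.09 ± 0.05 SE, with a 95% interval of -0.02 to 0.21 (edgeR adjusted p 0.422). The direct difference of BRD0705 from CHIR was -0.19 ± 0.05 SE and passed narrowly (edgeR adjusted p 0.0424). Among the 9 leave-one-out fits it passed only without Control replicate 1; in the others the edgeR adjusted p was 0.0523 to 0.159.

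Ier3 (chr17:35821713-35822911, plus strand, 2 exons) encodes a stress-induced protein, also called IEX-1, with roles in cell survival. Its level was 89.5, 92.6 and 89.9 CPM in Control. BRD0705 gave 89.7, 99.99 and 94.99 CPM, and CHIR 117, 125 and 111 CPM. The CHIR libraries lay above all libraries of both other groups, and BRD0705 overlapped Control. Control replicates varied by a coefficient of variation of 1.84%, against 2.32% expected from counting alone. Ier3 rose 1.30-fold with CHIR (log2 fold change 0.37 ± 0.06 SE, 95% interval 0.25 to 0.50, edgeR adjusted p 0.000825). With BRD0705 the estimate was 0.07 ± 0.06 SE, with a 95% interval of -0.06 to 0.19 (edgeR adjusted p 0.651). Directly, Ier3 was lower in BRD0705 than in CHIR by a log2 fold change of -0.31 ± 0.06 SE (95% interval -0.43 to -0.19, edgeR adjusted p 0.00343), and this passed in all 9 leave-one-out fits, each without 1 library.

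Ier5 (chr1:155096367-155099636, minus strand, 1 exon), whose product is known to act on the heat shock factor HSF1, was a low member. Its level was 6.16, 4.40 and 5.51 CPM in Control, 3.90, 4.60 and 4.32 CPM in BRD0705 and 5.43, 3.91 and 3.50 CPM in CHIR. The groups overlapped, although both inhibitor means lay below the Control mean of 5.36 ± 0.887 CPM (SD, n = 3). The log2 fold change was -0.33 ± 0.17 SE with BRD0705 (95% interval -0.69 to 0.04) and -0.32 ± 0.17 SE with CHIR (95% interval -0.68 to 0.05). Neither passed (edgeR adjusted p 0.386 and 0.325). When 1 library was left out the estimate with CHIR ran from -0.52 to -0.19. With the fibroblast marker score as a covariate the estimates were -0.67 ± 0.22 SE with BRD0705 (95% interval -1.14 to -0.20) and -0.60 ± 0.21 SE with CHIR (-1.04 to -0.17), and again neither passed over all genes (edgeR adjusted p 0.379 and 0.154). The direct difference was -0.01 ± 0.18 SE, and its 95% interval of -0.39 to 0.37 spans changes as large as that of Ier2 with CHIR; scaled by library size only, its sign was positive, at 0.02.

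Nr4a1 (chr15:101253902-101274795, plus strand, 7 exons) encodes NUR77, a nuclear receptor with no known hormone that is induced through CREB and MEF2 sites in many cells. Its level was 107, 90.9 and 96.2 CPM in Control, 128, 116 and 117 CPM in BRD0705 and 103, 113 and 111 CPM in CHIR. The BRD0705 libraries lay above all libraries of both other groups, while CHIR overlapped Control. Nr4a1 rose 1.23-fold with BRD0705 (log2 fold change 0.30 ± 0.07 SE, 95% interval 0.16 to 0.43, edgeR adjusted p 0.0368). With CHIR the estimate was 0.15 ± 0.07 SE (95% interval 0.01 to 0.29, edgeR adjusted p 0.207). The direct difference of BRD0705 from CHIR was 0.15 ± 0.07 SE and did not pass (95% interval 0.01 to 0.28, edgeR adjusted p 0.195), so a difference between the inhibitors was not shown for this gene. The BRD0705 call was not stable when 1 library was left out: of the 9 leave-one-out fits 4 passed, with a log2 fold change of 0.25 to 0.37 over all 9. It was lost without Control replicate 2 or 3 (edgeR adjusted p 0.175 and 0.133), BRD0705 replicate 1 or 2 (0.213 and 0.0686) or CHIR replicate 2 (0.0596), and with the correction for GC content and length (0.0641).

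Arc (chr15:74669081-74672570, minus strand, 3 exons) encodes a protein of neuronal synapses derived from a retrotransposon Gag protein. Its level was 32.8, 30.6 and 36.1 CPM in Control, 40.5, 37.1 and 37.2 CPM in BRD0705 and 35.5, 36.6 and 35.2 CPM in CHIR. Every BRD0705 library lay above every library of the other groups, and CHIR overlapped Control. The log2 fold change with BRD0705 was 0.21 ± 0.07 SE (95% interval 0.06 to 0.35), with an unadjusted p of 0.00791 and an edgeR adjusted p of 0.148. With CHIR it was 0.11 ± 0.07 SE (95% interval -0.04 to 0.25, edgeR adjusted p 0.409).

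Srf (chr17:46546838-46558267, minus strand, 7 exons) encodes the factor that binds the CArG boxes printed above, and the gene is itself an early target of that factor. Its level was 82.7, 75.1 and 81.0 CPM in Control, 87.1, 81.2 and 83.2 CPM in BRD0705 and 79.5, 81.3 and 82.8 CPM in CHIR. All 3 groups overlapped. The log2 fold change was 0.07 ± 0.06 SE with BRD0705 (95% interval -0.04 to 0.19) and 0.03 ± 0.06 SE with CHIR (95% interval -0.09 to 0.15), and neither passed (edgeR adjusted p 0.568 and 0.838). The upper bound with CHIR, 0.15, lies below the estimates of Egr1, Ier2 and Ier3 in the same comparison. The microRNA gene Mir6976, which overlaps Srf, had 0 counts in every library; other annotated genes that overlap Egr2, Ier3, Ier5, Nr4a1 or Srf have no row in the table, and the use of strand in counting is not given in the sources used here.

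**Figure D2:**
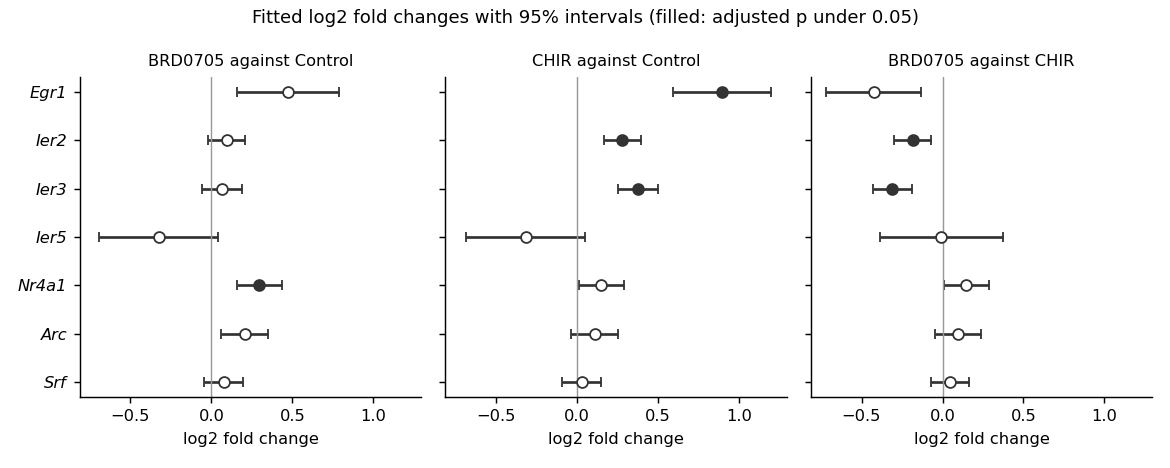
Fitted log2 fold changes (horizontal axis) of the 7 members tested, in BRD0705 against Control, CHIR against Control and BRD0705 against CHIR; bars are 95% intervals, and filled points passed an adjusted p of 0.05 over all genes. Filled points are Nr4a1 in the first comparison, Egr1, Ier2 and Ier3 in the second, and Ier2 and Ier3 in the third.

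As a group, 7 of the 9 members had enough counts to be tested. Over all genes tested, 1.22% passed in either direction with BRD0705, 6.3% with CHIR and 7.78% between the inhibitors. With BRD0705, 1 of the 7 passed, as a rise, where 0.69% of the 15366 genes tested passed as rises. The groups did not overlap for 3 of them, all higher, where 9.83% of all genes did so. The estimate was positive in 6 of 7, and the median log2 fold change was 0.09, against -0.00 over all genes tested. With CHIR, 3 of the 7 passed as rises, where 2.52% of all genes did, and the same 3 did not overlap, where 10.9% of all genes were higher without overlap. Again 6 of 7 estimates were positive, with a median of 0.15 against -0.01 over all genes. Between BRD0705 and CHIR, 2 of the 7 passed as lower in BRD0705, where 2.98% of all genes did. In that comparison 3 members were lower without overlap (Egr1, Ier2 and Ier3) and 2 were higher (Nr4a1 and Arc), where 12.9 and 13.7% of all genes were. The comparisons with Control share its 3 libraries, so their values are not independent of each other. DESeq2 passed the same number of members in each comparison: 1, 3 and 2.

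The rises with CHIR were set beside the fibroblast markers library by library. CHIR replicate 3 had a marker score, the mean log2 CPM of the 12 markers, of 7.11, within the Control range of 7.03 to 7.24, while the other CHIR libraries had 7.41 and 7.44. In CHIR replicate 3, Egr1 was at 6.83 CPM, Ier2 at 137 and Ier3 at 111, each above every Control library. It had the lowest Egr1 and Ier3 of the CHIR group. CHIR replicates 1 and 2 had 7.87 and 7.65 CPM for Egr1 and 117 and 125 for Ier3. Its Ier2 was not the lowest, as these had 145 and 135 CPM. This is 1 library, and the part of the feeder cells in the rises was not tested. Control replicate 3, with a score of 7.12, had 3.45, 111 and 89.9 CPM. With the score as a covariate the log2 fold changes were 0.75 ± 0.18 SE for Egr1, 0.24 ± 0.07 for Ier2 and 0.33 ± 0.08 for Ier3. Egr1 and Ier3 passed (edgeR adjusted p 0.0351 and 0.0302) and Ier2 did not (0.0840).

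The BRD0705 libraries could not be set beside Control in the same way, because their scores, 7.35 to 7.38, all lay above those of Control. With the covariate, the log2 fold change of Nr4a1 with BRD0705 was 0.24 ± 0.09 SE and it did not pass (edgeR adjusted p 0.432). That of Egr1 with BRD0705 went from 0.47 to 0.29 ± 0.20 SE, with a 95% interval of -0.12 to 0.70 (edgeR adjusted p 0.701). Over the 9 libraries the correlation of log2 CPM with the marker score was 0.68 for Nr4a1, 0.66 for Arc, 0.65 for Egr1, 0.52 for Ier2, 0.47 for Srf, 0.40 for Ier3 and -0.04 for Ier5. After subtraction of the group means it was 0.28 for Nr4a1, 0.27 for Arc, 0.57 for Egr1, 0.46 for Ier2, 0.17 for Srf, 0.38 for Ier3 and 0.69 for Ier5. These describe 9 libraries that share their groups, and no test was made of them.

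**Figure D3:**
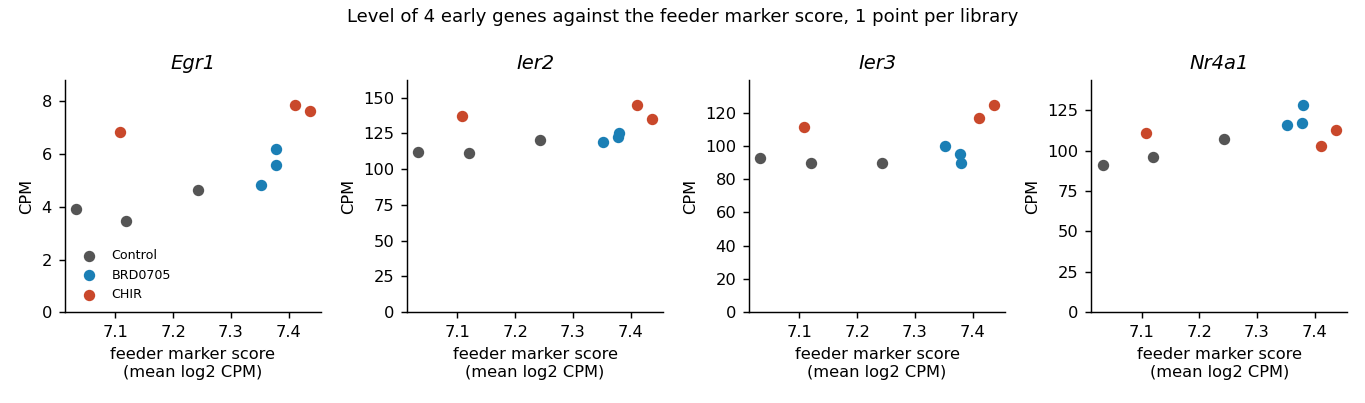
Level in CPM (vertical axes, from 0) of Egr1, Ier2, Ier3 and Nr4a1 against the fibroblast marker score in mean log2 CPM (horizontal axes), with 1 point per library. The CHIR library with a score of 7.11 lies above all Control libraries for each of the 4 genes, and the 3 BRD0705 libraries lie between 7.35 and 7.38, to the right of all Control libraries. For Nr4a1 the CHIR and Control groups overlap.

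Some members varied together across the 9 libraries. Among the 21 pairs of tested members, Pearson's correlation of log2 CPM ranged from -0.45 to 0.96. Egr1, Ier2 and Ier3 gave 0.96 for Egr1 with Ier2, 0.82 for Ier2 with Ier3 and 0.79 for Egr1 with Ier3. Within groups, on deviations from the group means, the first of these stayed at 0.81, while those with Ier3 were -0.46 and -0.25. Nr4a1, Arc and Srf gave 0.87 for Nr4a1 with Srf, 0.81 for Nr4a1 with Arc and 0.79 for Arc with Srf. Within groups these were 0.88, 0.45 and 0.69. Ier5 had negative correlations with every other tested member, from -0.45 with Nr4a1 to -0.23 with Srf. Within groups these ran from -0.05 with Nr4a1 to 0.58 with Ier2, and only that with Nr4a1 was negative. The points share libraries, depth and scaling, and the pairs named were picked out from these values.

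The genes whose log2 CPM followed a member most closely over the 9 libraries were drawn from all tested genes whose mean log2 CPM was 3 or more. For Nr4a1 they were Elk1, the gene of a ternary complex factor that acts with SRF, at a correlation of 0.99, then Mnt at 0.98 and Bcl3 at 0.97. For Arc they were Mrtfa, the gene of a myocardin-related SRF cofactor, at 0.97, Trp53bp2 at 0.93 and Vps72 at 0.92. For Srf they were Morc2a at 0.95, Vac14 at 0.93 and Rptor at 0.93. For Egr1 they were the mRNA export factor gene Nxf1 at 0.97, the AP-1 subunit gene Fosl1 at 0.96 and the interferon receptor gene Ifnar2 at 0.96. For Ier3 they were Ptgs2, the inducible cyclooxygenase gene, at 0.98, Trmt6 at 0.97 and Kansl3 at 0.96. Ptgs2 stood at mean levels of 56.0, 63.1 and 85.8 CPM in Control, BRD0705 and CHIR. Ier2 was followed by Top3a, Kdelr2 and Nol9 at 0.97, 0.96 and 0.96, and Ier5 by Tgif2, Atg101 and 1810009A15Rik at 0.93, 0.92 and 0.91. With 9 libraries and about 9563 candidates per gene, high values can occur without any relation, and no test was made.

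Among the family members and partners of these genes, 1 gene passed. Of 8 listed, 7 were tested and none passed with BRD0705 (0 at an unadjusted p under 0.05 by edgeR, and 0 by DESeq2), with a median log2 fold change of 0.04. With CHIR 1 of the 7 passed, 3 had an unadjusted p under 0.05 (Nab2, Nr4a2 and Rxrb, all with lower estimates), and the median was -0.12 against -0.01 over all genes. Between the inhibitors 1 passed and 2 had an unadjusted p under 0.05 by edgeR (Nab2 and Rxrb). All 7 estimates were higher in BRD0705, with a median of 0.18 against 0.00, and 3 were higher without overlap, where 13.7% of all genes were. Over all genes tested, 1.22% passed with BRD0705, 6.3% with CHIR and 7.78% between the inhibitors. In the same order, 15.9, 20.5 and 22.5% of all genes had an unadjusted p under 0.05 by edgeR. The gene that passed was Nab2, the gene of a co-repressor that binds EGR proteins and is itself an EGR target. Nab2 stood at 25.0, 21.8 and 23.1 CPM in Control, 24.0, 22.3 and 23.8 CPM in BRD0705 and 18.3, 18.9 and 20.5 CPM in CHIR. All CHIR libraries lay below all others, while BRD0705 lay among Control. Nab2 fell with CHIR by a log2 fold change of -0.28 ± 0.08 SE (edgeR adjusted p 0.0374), and it was higher in BRD0705 than in CHIR by 0.28 ± 0.08 SE (edgeR adjusted p 0.0319; 0.0726 to 0.118 without BRD0705 replicate 1 or 3 or CHIR replicate 1 or 2, and 0.111 with the GC and length correction). The fall with CHIR held in 4 leave-one-out fits of 9, was lost without Control replicate 1 or 3, BRD0705 replicate 1, or CHIR replicate 1 or 2, and did not pass by DESeq2; its edgeR and DESeq2 adjusted p ranged from 0.0156 to 0.194 over all alternatives. Of the NR4A relatives, Nr4a2 stood at 2.13 ± 0.629, 1.91 ± 0.146 and 1.44 ± 0.424 CPM in Control, BRD0705 and CHIR (SD, n = 3 each) and passed in no comparison. Nr4a3 had too few counts to be tested, at 0.195 ± 0.0959, 0.289 ± 0.119 and 0.419 ± 0.165 CPM. Egr4 gave 8 to 22 counts a library. Egr4, Nab1, Ier5l and the NR4A partners Rxra and Rxrb passed in no comparison.

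Other immediate early genes moved in both directions. Of the 27 listed and tested, 6 rose and 1 fell with BRD0705, where 0.69 and 0.534% of all genes tested rose and fell, and the median log2 fold change was 0.16 against -0.00 over all genes. With CHIR 9 rose and 4 fell, where 2.52 and 3.78% of all genes did, with a median of 0.12 against -0.01. The plot of the other immediate early genes shows each estimate.

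With BRD0705 the 6 with the smallest p were Dusp1, Bhlhe40, Plk3, Fosl1, Junb and Klf6. Dusp1, the gene of a phosphatase that switches off MAP kinases, stood at 95.9, 86.2 and 86.95 CPM in Control, 123, 119 and 125 CPM in BRD0705 and 96.7, 93.7 and 98.2 CPM in CHIR. Only its BRD0705 libraries stood above Control without overlap. Dusp1 rose with BRD0705 by a log2 fold change of 0.45 ± 0.06 SE (edgeR adjusted p 0.00127) and was higher there than in CHIR by 0.35 ± 0.06 (edgeR adjusted p 0.000992). The transcription factor gene Bhlhe40 rose with BRD0705 by 0.41 ± 0.06 SE (edgeR adjusted p 0.00474). Both passed in all 9 leave-one-out fits, and with the fibroblast marker score as a covariate their log2 fold changes were 0.42 ± 0.08 SE and 0.41 ± 0.09, with edgeR adjusted p of 0.0823 and 0.166. The kinase gene Plk3 and the AP-1 genes Fosl1 and Junb rose by 0.36, 0.47 and 0.33, and the Krüppel-like factor gene Klf6 fell by 0.32 (edgeR adjusted p 0.0185, 0.0192, 0.0241 and 0.0269). Plk3 and Fosl1 lost the call without Control replicate 2 or 3 or BRD0705 replicate 1 (edgeR adjusted p 0.0811 to 0.143), and Junb also without BRD0705 replicate 2 (0.0657 to 0.0884). Klf6 lost it without Control replicate 2 or any 1 BRD0705 library (edgeR adjusted p 0.0532 to 0.168). With the GC and length correction Junb and Klf6 lost it too (log2 fold change 0.25 and -0.26, edgeR adjusted p 0.0849 and 0.0559). All 4 lost it with the covariate, at log2 fold changes of 0.28 for Plk3, 0.36 for Fosl1, 0.21 for Junb and -0.26 for Klf6 (edgeR adjusted p 0.382 to 0.474). The smallest edgeR adjusted p of these 4 over all alternatives was 6.09e-05, for Fosl1.

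With CHIR the 6 with the smallest p were Klf10, Bhlhe40, Fosl1, Ccn2, Klf6 and Junb. Klf10, a TGF-β-inducible factor gene, stood at 112, 122 and 118 CPM in Control, 134, 142 and 132 CPM in BRD0705 and 174, 172 and 172 CPM in CHIR, in 3 groups without overlap. It rose with CHIR, by a log2 fold change of 0.56 ± 0.05 SE (edgeR adjusted p 5.76e-06), and directly it was lower in BRD0705 by -0.34 ± 0.05 SE (edgeR adjusted p 0.000575). Fosl1 stood at 15.9, 13.3 and 14.6 CPM in Control, 23.0, 18.6 and 18.9 CPM in BRD0705 and 24.9, 25.1 and 24.0 CPM in CHIR, the same order of groups as Egr1. With CHIR, Bhlhe40, Fosl1 and Junb rose by 0.53, 0.76 and 0.38 (edgeR adjusted p 5.31e-05, 7.68e-05 and 0.00205). Ccn2 and Klf6 fell, by 0.41 each (edgeR adjusted p 0.000825 and 0.00120). Ccn2, the gene of a matricellular protein and a known target of the YAP and SRF pathways, stood at 116, 98.2 and 100.2 CPM in Control and 78.7, 80.8 and 77.9 CPM in CHIR. All 6 calls held in all 9 leave-one-out fits, and all but that of Junb (log2 fold change 0.29, edgeR adjusted p 0.0787) held with the covariate.

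**Figure D4:**
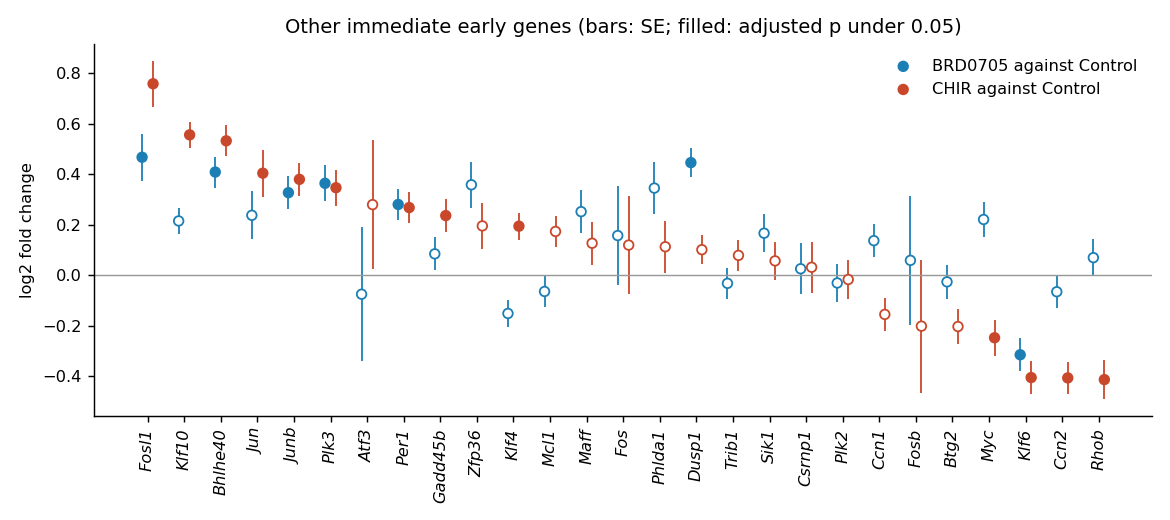
Log2 fold changes (vertical axis) of the 27 other immediate early genes with BRD0705 and with CHIR, each against Control; points are edgeR estimates, bars are 1 SE, and filled points passed an adjusted p of 0.05 over all genes. With CHIR 9 filled points lie above 0 and 4 below, and with BRD0705 6 lie above and 1 below.

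Between the inhibitors 8 of the 27 differed, 5 higher in BRD0705 and 3 lower, where 4.8 and 2.98% of all genes tested were. Myc stood at 60.2, 51.2 and 58.3 CPM in Control, 72.5, 62.2 and 63.2 CPM in BRD0705 and 48.3, 46.6 and 48.0 CPM in CHIR. Against Control, its log2 fold change was 0.22 with BRD0705, which did not pass (edgeR adjusted p 0.127). With CHIR it was -0.25 and passed narrowly (edgeR adjusted p 0.0476). That call held in 2 of 9 leave-one-out fits and was lost with the covariate (edgeR adjusted p 0.114). Myc was higher in BRD0705 than in CHIR by a log2 fold change of 0.47 ± 0.07 SE (edgeR adjusted p 0.000571). Klf4, a pluripotency factor gene, went the other way between the inhibitors, at 164, 160.3 and 169 CPM in Control, 148, 153 and 143 CPM in BRD0705 and 178, 192 and 195 CPM in CHIR. Against Control, its log2 fold change was -0.15 with BRD0705, which did not pass (edgeR adjusted p 0.171). With CHIR it was 0.19 and passed (edgeR adjusted p 0.0369). That call held in 4 of 9 leave-one-out fits and was lost with the covariate (edgeR adjusted p 0.116). Directly, it was lower in BRD0705 by -0.35 ± 0.05 SE on the log2 scale (edgeR adjusted p 0.000660). Rhob, the gene of a small GTPase of the actin cytoskeleton, was higher in BRD0705 by 0.48 ± 0.08 SE and Ccn2 by 0.34 ± 0.06 SE (edgeR adjusted p 0.000818 and 0.00310). The calls between the inhibitors of Myc, Klf4, Rhob, Ccn2, Dusp1 and Klf10 passed in all 9 leave-one-out fits and with the covariate. Fos, the partner of Jun in AP-1, stood at 3.101 ± 0.420, 3.47 ± 0.621 and 3.38 ± 0.771 CPM in Control, BRD0705 and CHIR (SD, n = 3 each), and passed in no comparison.

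The genes around Srf were counted as cofactors and as cytoskeletal targets. Over all genes tested, 1.22% passed with BRD0705, 6.3% with CHIR and 7.78% between the inhibitors. With such shares, 0 calls among 7 or 12 genes says little about these genes. Of 8 SRF cofactor genes, 7 were tested and 0 passed in any comparison by edgeR or by DESeq2. At an unadjusted p under 0.05 by edgeR there were 2 with BRD0705 (Elk1 and Mrtfa), 0 with CHIR and 1 between the inhibitors (Scai), where 15.9, 20.5 and 22.5% of all genes were. Elk1 and Mrtfa, which followed Nr4a1 and Arc above, were higher in every BRD0705 library than in every Control library, where 9.83% of all genes tested were. With that share, 2 of 7 genes says little, and neither gene passed. Elk1 stood at 50.7, 46.1 and 48.8 CPM in Control and 58.4, 54.2 and 53.6 CPM in BRD0705 (difference 0.19 ± 0.06 SE on the log2 scale, edgeR adjusted p 0.121). Mrtfa had a log2 fold change of 0.16 ± 0.06 SE (edgeR adjusted p 0.183). Of the 12 cytoskeletal SRF targets 0 passed in any comparison by edgeR, with 3 at an unadjusted p under 0.05 with BRD0705 (Myl9, Tagln and Zyx, all with higher estimates) and 0 in the other comparisons. DESeq2 passed 1 with BRD0705, the focal adhesion gene Zyx (DESeq2 adjusted p 0.0224), whose edgeR adjusted p was 0.0916. Their median log2 fold changes were 0.06 with BRD0705 and 0.03 with CHIR.

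Of 14 genes of the ERK and CREB pathways upstream, 13 had a row and were tested. None passed against Control by edgeR, where 1.22% of all genes did with BRD0705 and 6.3% with CHIR. At an unadjusted p under 0.05 by edgeR there were 1 with BRD0705 and 3 with CHIR, where 15.9 and 20.5% of all genes were. DESeq2 passed 0 with BRD0705 and 1 with CHIR. Their median log2 fold changes were 0.03 with BRD0705 and 0.01 with CHIR. Transcript levels of these kinases and factors do not measure their activity.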

How the data were processed

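RNA of 9 libraries, 3 in each of 3 groups, was sequenced to 17359422 to 20773337 counts per library, which limits genes of few counts most. The authors deposited counts per gene symbol as whole numbers. RSEM, DESeq2 and the build mm10 stand in the submitters' processing notes with no role, and the use of strand is not given in the sources used here. A deposited normalized table was not used. Per the labels' protocols, libraries used a TruSeq kit with ribosomal depletion, but polyA RNA is given as the molecule; the labels also name different extraction kits, so which transcripts were captured is unsure. Each library was placed in its group by its description label.

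Counts were tested with edgeR 4.0.16 (quasi-likelihood F test, 2-sided, TMM scaling, filterByExpr with a minimum count of 10) in 1 fit of all 9 libraries with 6 residual degrees of freedom, in R 4.3.3, with Benjamini-Hochberg adjustment over the 15366 genes tested and a threshold of 0.05. Intervals are 95% from the estimate and its SE. CPM were computed with TMM-scaled totals, and their log2 with a prior count of 2. The script was checked on simulated counts. The alternatives were DESeq2 1.42.0, other scalings and filters, the groups compared alone, the replicate block, a GC and length correction (GENCODE vM39, available for 98.0% of the genes tested), a fibroblast marker covariate, a covariate of its 6 collagen genes, chosen after seeing the data, and leaving out each library.

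The members and gene lists were chosen with earlier results of these data known. The genes named are the 9 members, the family and partner genes, up to 6 genes per list and comparison that passed, by smallest p, the fibroblast markers that passed, and the 3 most alike genes of each tested member; Fos, Elk1, Mrtfa, Scai, Myl9, Tagln, Zyx and Ctnnb1, and Mir6976 for its overlap, were added after their values were seen. Of the genes that met the rule, 1 is not reported here. Positions came from the RefSeq table of GRCm38.p6 and promoter windows (250 bases before to 50 after the start) from RefSeq on the same build, which the notes call mm10.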

Additional observations from a re-analysis of the deposited data

How the results depend on the processing

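With BRD0705 against Control, 188 genes passed over all genes. This became 609 with no filter, 489 by DESeq2, 112 with the GC and length correction, 101 with that correction and the replicate block, 18 with the collagen score, 0 with the fibroblast marker score (1434 at an unadjusted p under 0.05 by edgeR) and 21 to 305 when 1 library was left out: 21, 55 and 305 without BRD0705 replicates 1, 2 and 3, 292, 37 and 51 without Control replicates 1, 2 and 3, and 98 without CHIR replicate 2. The 1 member called became 0 with either score and with the GC and length correction, alone or with the block (2 members at an unadjusted p under 0.05 by edgeR in each), and 0 to 1 when 1 library was left out. The 7 other immediate early genes called became 11 with no filter, 1 with the collagen score, 0 with the marker score (10 at an unadjusted p under 0.05) and 2 to 9 when 1 library was left out, with 2 without Control replicate 2 or BRD0705 replicate 1, 3 without Control replicate 3 and 4 without BRD0705 replicate 2.

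With CHIR, 968 genes passed, 276 with the marker score, 313 with the collagen score and 514 to 1070 when 1 library was left out (514 and 634 without CHIR replicates 2 and 1, 523 and 561 without Control replicates 2 and 3). The 3 members called were 3 to 3 then and 2 with either score. The 13 other early genes became 6, 7 and 8 to 13, with 8 without CHIR replicate 2. Between the inhibitors 1196 genes passed, 616 to 1313 when 1 library was left out (616 and 756 without BRD0705 replicates 1 and 2, 675 and 617 without CHIR replicates 1 and 2). The 2 members called became 1 with library size only and 1 to 2 when 1 library was left out, and the 8 other early genes 7 to 9. With library size only the share of calls that were higher went from 40.0 to 26.4% for CHIR and from 61.7 to 79.2% between the inhibitors; DESeq2 gave 50.5% for CHIR.

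Of 1218 fold changes of single genes under alternatives, 201 lost a call, 2 gained one (Egr1 between the inhibitors, with the GC and length correction with and without the block) and 9 changed sign, all of genes not called. With that correction, Srf went to -0.0240 with BRD0705 (-0.0240 with the block) and to -0.0365 between the inhibitors (-0.0367 with the block). Srf with CHIR ranged from -0.00187, without Control replicate 2, to 0.0635 when 1 library was left out. Ier5 between the inhibitors went to 0.00831 with the replicate block and 0.0226 with library size only, and ranged from -0.136 to 0.205 when 1 library was left out, positive without BRD0705 replicate 1 or CHIR replicate 1. The cause was not tested.

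The replicate block gave 222, 974 and 1177 genes in the 3 comparisons, 7, 13 and 9 other early genes, and kept the call of Nr4a1 with BRD0705 (edgeR adjusted p 0.0433). Libraries that share a number correlated by -0.0897 to 0.0802 in their deviations from the group means, and those of different numbers by -0.116 to 0.129. Of the 9 libraries, 3 correlated best with their own number. No pairing by number was seen, but the values cannot tell whether libraries of the same number were handled together. Genes of few counts, such as Egr2 and Egr3, are limited by depth.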

Other observations

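The share of called genes was also counted by CArG box. Among the tested genes with a window, 170 of 11414 had a CArG box. With BRD0705, 2 of the 170 (1.18%) were called higher and 1 (0.588%) lower, against 0.718 and 0.482% of all those with a window. With CHIR, 3 (1.76%) were called higher and 5 (2.94%) lower, against 2.54 and 3.79%. Each share of the 170 thus rests on few genes. Of the cytoskeletal SRF targets with a window, 4 of 10 had a CArG box (Actg1, Vcl, Cnn2 and Myl9), of the other immediate early genes 1 of 19 (Zfp36), and of the SRF cofactor genes 1 of 7 (Fhl2). These counts are a description with no test.

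Of the 10 stem cell markers 1, the nuclear receptor gene Esrrb, rose with CHIR, by a log2 fold change of 0.22 (edgeR adjusted p 0.00734), where 2.52% of all genes rose; with the fibroblast marker score as a covariate its log2 fold change was 0.24 and its edgeR adjusted p 0.0547. Between the inhibitors 2 of the 10, Esrrb and Tdgf1, were lower in BRD0705, by log2 fold changes of -0.15 and -0.21 (edgeR adjusted p 0.0473 and 0.0321), where 2.98% of all genes were. These calls passed in 1 and 4 of 9 leave-one-out fits, with edgeR adjusted p of 0.0604 to 0.129 for Esrrb in all fits but that without Control replicate 1, and of 0.0616 to 0.114 for Tdgf1 without BRD0705 replicate 1 or 3 or any 1 CHIR library.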
